A study of Homo sapiens with 6 samples.

Results

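Transcripts of the ERBB receptors and of the EGF-type ligands that bind them were compared between A549 cells given Japoflavone B and A549 cells given the solvent DMSO. A549 is an established line from a human lung adenocarcinoma, and the series describes the compound as a PARP1 inhibitor. The 9 genes were taken by symbol from the 61806 genes of the deposited table: the receptors EGFR, ERBB2 and ERBB3, the ligands AREG, EREG, HBEGF, TGFA and BTC, and the receptor inhibitor ERRFI1. Each symbol matched 1 row, and all 9 genes were among the 16082 that passed the filter on low counts and were tested. There were 3 libraries for Japoflavone B, titled LE-532, and 3 for DMSO. Both groups were A549 cells of wild-type genotype per the labels, seeded for 24 h and then treated for 24 h. The dose is written as 40 with no unit, and nothing in the labels tells whether a group's libraries came from separate cultures, so p-values reflect spread that may be technical.

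ERBB receptors are receptor tyrosine kinases of the plasma membrane. EGF-type ligands are made as membrane-anchored precursors, cut loose by metalloproteases, and bind EGFR, which then pairs with itself or with another ERBB receptor and activates RAS-ERK and PI3K signalling. ERBB2 has no known ligand and serves as a partner, ERBB3 has little kinase activity of its own and is bound by neuregulins, and ERRFI1, also called MIG6, binds the kinase domain of EGFR and blocks it as a feedback inhibitor. In lung epithelium this pathway serves growth and repair, and EGFR is a drug target in lung adenocarcinoma.

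Depth was 15733769 to 19822366 counts per library after Japoflavone B and 15298531 to 21744407 after DMSO. Mitochondrial genes held 8.33% to 8.58% of the counts after Japoflavone B and 3.97% to 4.70% after DMSO. Leaving them out moved no log2 fold change of the 9 genes by more than 0.0010. That refit also recomputed the scaling between libraries, so it could hardly move these values. FPKM were not recomputed without mitochondrial genes, so the refit does not bear on FPKM levels and shares. Of 8 genes used to check the line, 6 were lower after Japoflavone B and 2 were not called, and their summed level was 517 to 533 FPKM after Japoflavone B and 1375 to 1506 FPKM after DMSO. KRT18, a keratin, averaged 130.0 FPKM after Japoflavone B and 464 FPKM after DMSO, whereas the epithelial adhesion gene EPCAM was low in both, at 0.673 and 0.907 FPKM. Among 12 markers of other cell types, the leukocyte gene PTPRC had 0 counts after Japoflavone B and 2 after DMSO, CD3E and VWF, of T cells and endothelium, had none in any library, and SFTPC, of alveolar type II cells, had 5 counts in each group. Their summed level was 37.6 to 43.6 FPKM after Japoflavone B and 12.4 to 13.8 FPKM after DMSO. Of the 12, 6 were tested, with 2 higher, 3 lower and 1 not called. Most of the sum came from ACTA2, a smooth muscle actin, with 39.3 FPKM after Japoflavone B and 5.45 FPKM after DMSO, and the B cell gene CD79A was also higher, at 0.863 and 0.137 FPKM. CD79A passed the filter on low counts through its treated libraries alone, so its direction was fixed by the filter. Lower were the fibroblast collagen COL1A1, with 0.473 and 4.64 FPKM, the monocyte gene CD14, with 0.313 and 2.53 FPKM, and the collagen COL3A1, with 0.080 and 0.180 FPKM, whose call was lost in 7 of 16 alternatives. CD14 and COL3A1 would not have passed the filter without their DMSO libraries. The part of these shifts in the results below was not tested.

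The ligand genes EREG, AREG and BTC lie in one stretch of chromosome 4. The 250 bases before the start of these 3 genes are shown because the neighbours EREG and AREG rose and BTC, farther along the same stretch, fell. Sequences are from RefSeq (GRCh38.p14), written 5′ to 3′ on the strand of the gene, and capitals mark matches to the motifs searched.
AREG, chr4:74444886-74445135, plus strand: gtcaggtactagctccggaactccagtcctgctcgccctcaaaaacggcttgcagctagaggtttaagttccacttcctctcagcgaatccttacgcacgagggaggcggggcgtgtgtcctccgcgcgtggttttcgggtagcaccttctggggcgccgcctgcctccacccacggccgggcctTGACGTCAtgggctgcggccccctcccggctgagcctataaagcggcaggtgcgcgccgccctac
EREG, chr4:74364895-74365144, plus strand: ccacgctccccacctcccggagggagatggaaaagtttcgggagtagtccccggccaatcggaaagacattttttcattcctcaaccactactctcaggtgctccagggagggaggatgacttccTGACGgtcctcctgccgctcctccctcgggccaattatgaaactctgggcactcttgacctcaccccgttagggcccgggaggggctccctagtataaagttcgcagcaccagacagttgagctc
BTC, chr4:74794524-74794773, minus strand: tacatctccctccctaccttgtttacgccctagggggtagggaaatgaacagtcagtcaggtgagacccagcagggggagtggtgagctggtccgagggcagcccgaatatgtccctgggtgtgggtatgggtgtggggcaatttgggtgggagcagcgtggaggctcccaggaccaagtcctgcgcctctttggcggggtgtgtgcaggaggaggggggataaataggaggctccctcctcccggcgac
Both strands were searched for 5 motifs. The cAMP response element was TGACGTCA. Its half-site was taken as TGACG, which lies within the full element. Sites of the AP-1 factors were taken as TGANTCA. Sites of EGR factors were taken as GCGNGGGCG. The E-box of basic helix-loop-helix factors was CACGTG. Capitals in AREG mark TGACGTCA from base -65 to base -58, counted back from the start of the gene. That motif was present in 1.65% of the 35116 promoter windows of the same length in the table, and it holds a half-site on each strand. EREG had 1 half-site, from base -125 to base -121, and BTC had no match to any of the 5 motifs. Half-sites were found in 21.2% of all windows. RefSeq windows were found for 8 of the 9 genes, 10 windows in all, and not for ERBB3. Of the others, the TGFA window nearest to the deposited start held 1 half-site from base -154 to base -150, counted back from its RefSeq start. That window, 70553827 to 70554076, lies inside the gene as deposited, which starts at 70554193 on the minus strand. ERBB2 held 1 AP-1 match and the downstream EGFR window 2, while AP-1 matches were found in 6.57% of all windows. HBEGF, ERRFI1, the first EGFR window and the second TGFA window had none. EGR matches were found in 8.41% and E-box matches in 6.34% of all windows, and in no window of these genes.

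All 9 genes differed between the groups, 6 higher and 3 lower after Japoflavone B. EGFR, ERRFI1 and the ligands AREG, EREG, HBEGF and TGFA rose by more than 2-fold, and BTC, ERBB2 and ERBB3 fell. So wide a response was the rule in these libraries: 70% of the 16082 genes tested passed the same threshold (edgeR quasi-likelihood test, Benjamini-Hochberg adjusted p under 0.05), 34.7% higher and 35.4% lower. A rise of at least 2-fold past the threshold, which 6 of the 9 genes showed, was found in 9.67% of genes tested, and a fall of that size, which BTC alone of the 9 showed, in 15%. That split depended on the setting. On log2(TPM + 1) in limma EGFR stood at 0.95, ERBB2 at -1.05 and BTC at -0.93 log2, so each changed sides of the 2-fold line. For BTC the constant added before the log mattered, with -0.45 on log2(FPKM + 1) and -1.09 on log2(FPKM + 0.1) in limma. With library totals alone, a change of scaling, BTC stood at -1.28 log2. ERRFI1, AREG, EREG, HBEGF and TGFA stayed above 2-fold in every alternative. The FPKM of the groups did not overlap for any of the 9 genes, against 71.6% of all genes tested, 30.9% with the treated group above and 40.7% with it below. The median log2 fold change was 2.07 over the 9 genes and 0.00 over all genes. FPKM, counts per exonic length and library total, take no trimmed-mean factor; the fold changes do. With library totals alone the median shift of all genes was -0.10 log2, and the share of calls that were higher was 42.4%, against 49.5% with trimmed-mean factors. As TPM in limma these were -0.21 log2 and 35.2%. All 9 directions were the same under every scaling tried. In RNA of whole cultures, a change in the number of cells that express a gene and a change in RNA per cell cannot be told apart.

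**Figure D1:**
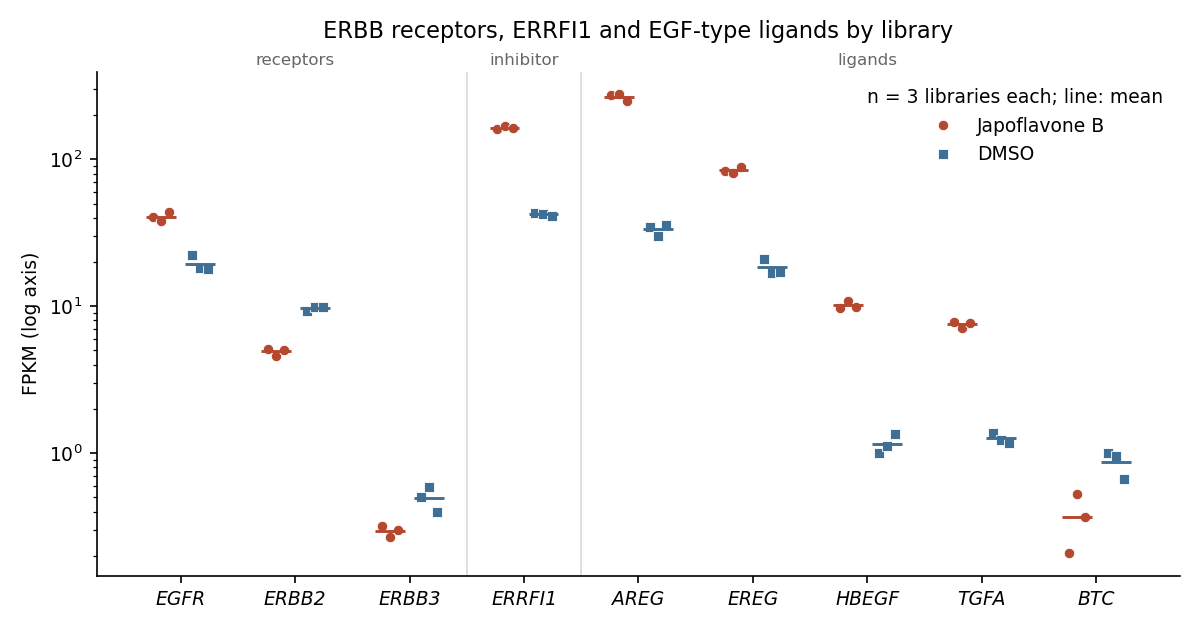
FPKM of each gene in each library on a log axis, with Japoflavone B as circles on the left and DMSO as squares on the right (n = 3 each, line: mean). The groups do not overlap for any gene, with AREG at 251 to 276 FPKM after Japoflavone B and 30.2 to 35.6 FPKM after DMSO, and BTC and ERBB3 at or below 1.00 FPKM throughout.

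Among the receptors, EGFR rose and its partners fell. EGFR (ENSG00000146648, chromosome 7, 55019017 to 55211628, GRCh38, as are all positions here) had 40.8, 38.1 and 43.5 FPKM after Japoflavone B and 22.3, 18.3 and 18.0 FPKM after DMSO. The lowest treated library stood well above the highest DMSO library, which was replicate 1. EGFR was 2.24-fold higher, a log2 fold change of 1.16 ± 0.06 (SE; edgeR adjusted p = 2.87e-15). The antisense gene EGFR-AS1, which overlaps it, had 2 to 11 counts after Japoflavone B and 3 to 10 after DMSO, against 9558 to 12885 and 4390 to 7411 counts for EGFR.

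ERBB2 (ENSG00000141736, chromosome 17, 39687914 to 39730426), the receptor without a ligand, had 5.15, 4.61 and 5.02 FPKM after Japoflavone B and 9.28, 9.91 and 9.89 FPKM after DMSO. Every treated library was low and every DMSO library high, with a narrow spread in each group. Its log2 fold change was -0.87 ± 0.06 (edgeR adjusted p = 6.55e-13). MIEN1 and PGAP3 overlap ERBB2 on the opposite strand, and since the strand setting of the counting is not stated in the sources used here, reads in the overlaps could not be told apart. MIEN1 had 749 to 1006 counts after Japoflavone B and 763 to 1006 after DMSO, and PGAP3 had 182 to 227 and 291 to 433 counts. ERBB3 (ENSG00000065361, chromosome 12, 56076799 to 56103505), the neuregulin receptor, was scarce, with 0.32, 0.27 and 0.30 FPKM after Japoflavone B and 0.50, 0.59 and 0.40 FPKM after DMSO. These values rest on 50 to 75 counts per treated library and 72 to 151 per DMSO library. A gene without a symbol, ENSG00000257411, overlaps ERBB3, and its counts were not examined. ERBB3 had a log2 fold change of -0.65 ± 0.19 (edgeR adjusted p = 0.00296), a call that was lost in limma on log2(FPKM + 1) and on log2(FPKM + 0.1) (adjusted p = 0.0647 and 0.0663). ERBB4, the remaining receptor of the family, had 0 counts after Japoflavone B and 1 count after DMSO over all libraries and was not tested.

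The make-up of the receptor transcripts shifted toward EGFR. EGFR held 88.2% to 89.1% of the summed FPKM of the 3 receptors after Japoflavone B and 63.5% to 69.5% after DMSO. ERBB2 held 10.3% to 11.1% after Japoflavone B and 28.9% to 35.0% after DMSO. Per length, EGFR exceeded ERBB2 by 7.92 to 8.67 times after Japoflavone B and by 1.82 to 2.41 times after DMSO. The summed receptor level was 43.0 to 48.8 FPKM after Japoflavone B and 28.3 to 32.1 FPKM after DMSO.

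ERRFI1, the feedback inhibitor (ENSG00000116285, chromosome 1, 8004404 to 8026309), rose more than EGFR itself. It had 161, 168 and 164 FPKM after Japoflavone B and 43.0, 42.3 and 41.1 FPKM after DMSO. The libraries of each group lay close together and far from the other group. ERRFI1 was 4.19-fold higher, a log2 fold change of 2.07 ± 0.05 (edgeR adjusted p = 2.96e-23). It was the most abundant of the 9 transcripts after DMSO and came after AREG once treated. The ratio of ERRFI1 to EGFR in FPKM was 3.76 to 4.41 after Japoflavone B and 1.93 to 2.32 after DMSO, ranges that did not overlap. A gene without a symbol, ENSG00000284747, overlaps ERRFI1, and its counts were not examined.

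The ligands were led by AREG and EREG in both groups. AREG (amphiregulin, ENSG00000109321, chromosome 4, 74445136 to 74455005), which binds EGFR alone, had 276, 276 and 251 FPKM after Japoflavone B and 34.4, 30.2 and 35.6 FPKM after DMSO. Treated libraries lay several-fold above all DMSO libraries. Its log2 fold change was 3.11 ± 0.06 (edgeR adjusted p = 1.25e-24), 8.62-fold higher. By mean FPKM, AREG ranked 91 among the 16082 genes tested after Japoflavone B and 1179 after DMSO. Its log2 fold change was exceeded by that of 166 genes.

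EREG (epiregulin, ENSG00000124882, chromosome 4, 74365145 to 74388749), which binds EGFR and ERBB4, had 83.5, 80.9 and 88.5 FPKM after Japoflavone B and 21.05, 16.95 and 17.16 FPKM after DMSO. The groups were far apart, with DMSO replicate 1 the highest of the DMSO libraries as for EGFR. EREG was 4.91-fold higher, a log2 fold change of 2.30 ± 0.07 (edgeR adjusted p = 1.18e-21). The ratio of EREG to EGFR in FPKM spanned 2.03 to 2.12 in treated libraries and 0.928 to 0.953 in DMSO libraries. That ratio varied little within a group, and both genes were highest in DMSO replicate 1. The ratio of AREG to EREG was 2.84 to 3.42 after Japoflavone B and 1.64 to 2.07 after DMSO.

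HBEGF and TGFA were scarce in DMSO cells and reached levels above ERBB2 after Japoflavone B. HBEGF (ENSG00000113070, chromosome 5, 140332843 to 140346603), a heparin-binding ligand of EGFR and ERBB4, had 9.80, 10.8 and 9.89 FPKM after Japoflavone B and 1.01, 1.12 and 1.36 FPKM after DMSO. Counts were 508 to 581 per treated library and 62 to 73 per DMSO library. It was 9.47-fold higher, the largest change of the 9, with a log2 fold change of 3.24 ± 0.12 (edgeR adjusted p = 6.57e-19). The ratio of HBEGF to AREG in FPKM overlapped between groups, at 0.0356 to 0.0394 after Japoflavone B and 0.0293 to 0.0382 after DMSO, so a difference in the size of their rise was not resolved beyond the spread of the libraries.

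TGFA (transforming growth factor alpha, ENSG00000163235, chromosome 2, 70447284 to 70554193), a ligand of EGFR, had 7.80, 7.06 and 7.75 FPKM after Japoflavone B and 1.38, 1.23 and 1.17 FPKM after DMSO. All treated libraries were high and all DMSO libraries near 1 FPKM. Another gene, TGFA-IT1, overlaps TGFA, and its counts were not examined. TGFA was 6.41-fold higher, a log2 fold change of 2.68 ± 0.10 (edgeR adjusted p = 6.84e-19). On log2(FPKM + 1) in limma, a scale that shrinks changes from low levels, the log2 changes of HBEGF and TGFA were 2.37 and 1.92.

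BTC moved against the other ligands. BTC (betacellulin, ENSG00000174808, chromosome 4, 74744759 to 74794523), which binds EGFR and ERBB4, had 0.21, 0.53 and 0.37 FPKM after Japoflavone B and 1.00, 0.95 and 0.67 FPKM after DMSO. The highest treated library stayed below the lowest DMSO library, but by a small margin. Behind these levels were 11, 22 and 18 counts after Japoflavone B and 55, 55 and 27 counts after DMSO. BTC had a log2 fold change of -1.18 ± 0.33 (edgeR adjusted p = 0.00274), 2.27-fold lower, and on log2(FPKM + 1) in limma a change of -0.45. An exact permutation test, two-sided, on the log2 CPM of single genes gave p = 0.1 for all 9 genes, which is the smallest p possible with 3 libraries against 3.

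**Figure D2:**
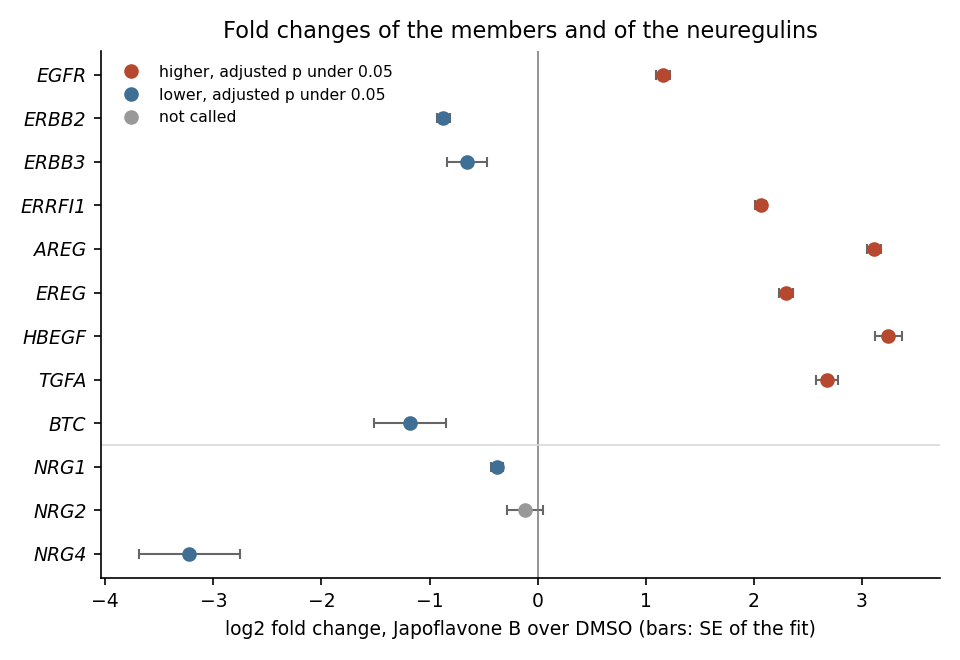
Log2 fold changes of the 9 genes and of the tested neuregulins, Japoflavone B over DMSO, from the edgeR fit, with bars for the SE. EGFR, ERRFI1 and 4 ligands stand right of 1, HBEGF farthest at 3.24, while ERBB2, ERBB3 and BTC stand at -0.87, -0.65 and -1.18. NRG4, whose direction was fixed by the filter on low counts, stands at -3.22.

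The summed level of the 5 ligands was 358 to 377 FPKM after Japoflavone B and 50.4 to 58.9 FPKM after DMSO. AREG made up 70.2% to 73.6% of that sum after Japoflavone B and 58.5% to 63.6% after DMSO, and EREG 21.5% to 24.8% and 30.7% to 35.8%. HBEGF held 2.60% to 2.88% after Japoflavone B and 1.72% to 2.43% after DMSO. TGFA, with 1.88% to 2.17% and 2.09% to 2.44%, overlapped between the groups. BTC held 0.0557% to 0.141% after Japoflavone B and 1.20% to 1.88% after DMSO. AREG and EREG accounted for most ligand transcripts in every library, with AREG taking the larger share after treatment. Levels here are per exonic length as the table gives it, which covers the exons of all isoforms, and do not measure protein.

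**Figure D3:**
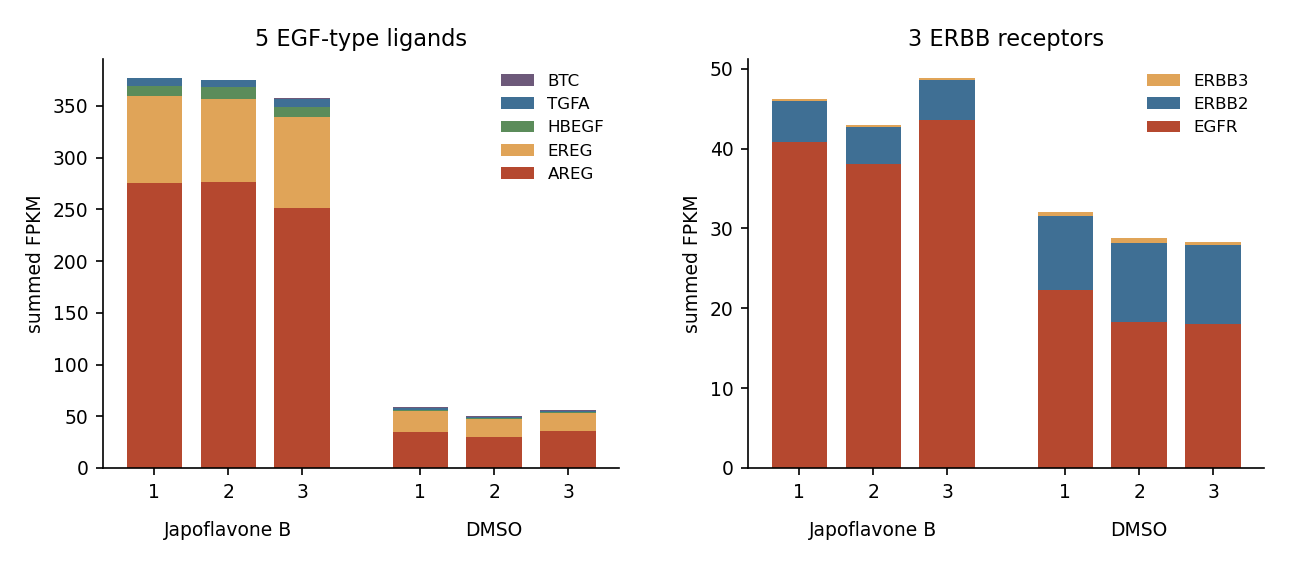
Stacked FPKM per library of the 5 ligands (left panel) and the 3 receptors (right panel), with Japoflavone B libraries left of DMSO libraries. The ligand bars reach 358 to 377 FPKM after Japoflavone B and 50.4 to 58.9 FPKM after DMSO, and within the receptor bars the ERBB2 block is smaller after Japoflavone B.

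Levels of the 9 genes were ordered differently in the groups. After Japoflavone B the order by mean FPKM was AREG, ERRFI1, EREG, EGFR, HBEGF, TGFA, ERBB2, BTC and ERBB3, and the libraries of neighbours overlapped for BTC and ERBB3 only. After DMSO it was ERRFI1, AREG, EGFR, EREG, ERBB2, TGFA, HBEGF, BTC and ERBB3. EGFR and EREG overlapped there, as did TGFA and HBEGF. ERBB2 had a higher level than HBEGF and TGFA in every DMSO library and a lower one than both in every treated library.

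The stretch of chromosome 4 from EPGN to BTC, 486.1 kb long, holds 6 genes in the table, and was examined after the values of its ligands were known. EREG ends 56.4 kb before AREG starts, on the same strand, and BTC lies 289.8 kb beyond AREG on the opposite strand. EPGN, the gene of the ligand epigen, had 1, 5 and 1 counts after Japoflavone B and 6, 1 and 0 after DMSO, too few to be tested. Between AREG and BTC lies a gene without a symbol, ENSG00000249942 (74552584 to 74589481, minus strand). It had 29, 19 and 21 counts after Japoflavone B and 0, 2 and 2 after DMSO, with a fitted log2 fold change of 4.17 ± 0.60 (edgeR adjusted p = 5.51e-07). Its treated libraries all stood above its DMSO libraries, on few counts. The other gene without a symbol, ENSG00000250532, lies between EREG and AREG and had no counts in any library. ENSG00000249942 passed the filter on low counts through its treated libraries alone, so its direction was fixed by the filter and it is no support for a rise along the stretch.

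**Figure D4:**
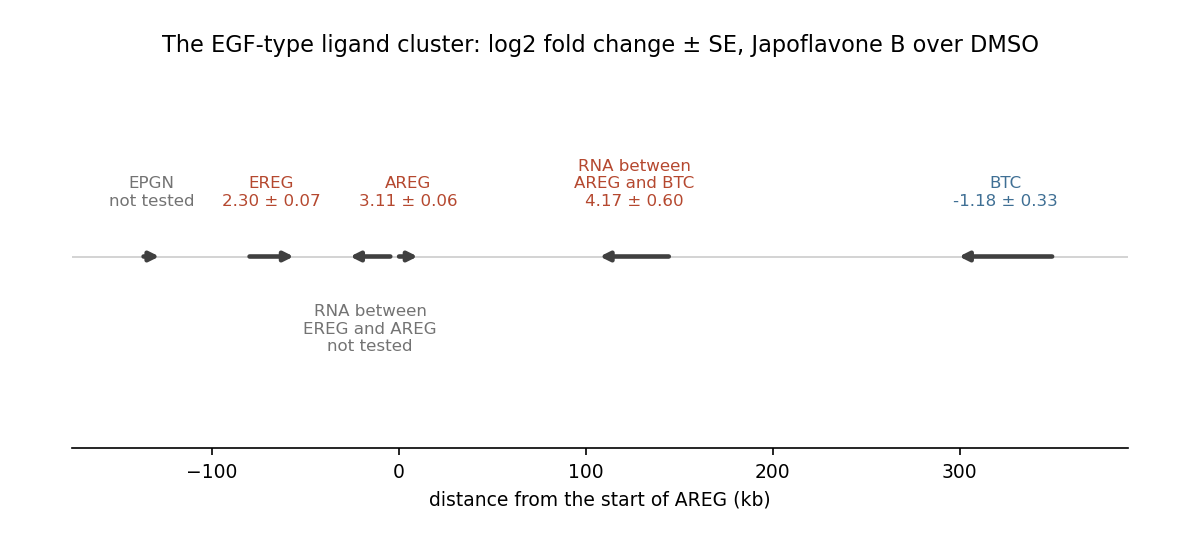
Genes of the stretch from EPGN to BTC by distance in kb from the start of AREG, drawn to scale, with arrows for the strand and log2 fold change ± SE, Japoflavone B over DMSO. EREG, AREG and the RNA between AREG and BTC are higher (2.30, 3.11 and 4.17), BTC is lower (-1.18), and 2 genes had too few counts to be tested.

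None of the remaining ligands of the family was called higher. NRG1, a neuregulin that binds ERBB3 and ERBB4, had 5.06, 5.21 and 5.11 FPKM after Japoflavone B and 7.70, 6.91 and 6.81 FPKM after DMSO, a log2 fold change of -0.38 ± 0.06 (edgeR adjusted p = 1.37e-06). NRG4, a ligand of ERBB4, had 1, 3 and 6 counts after Japoflavone B and 40, 42 and 29 after DMSO, with a log2 fold change of -3.22 ± 0.46 (edgeR adjusted p = 6.29e-07). NRG4 passed the filter on low counts through its DMSO libraries alone, so its direction was fixed by the filter. NRG1 was lower in every treated library than in any DMSO library, as were 40.7% of all genes tested by FPKM. NRG2 overlapped between the groups, with a log2 fold change of -0.12 ± 0.17 (edgeR adjusted p = 0.544). EGF itself had 3, 3 and 2 counts after Japoflavone B and 13, 4 and 16 after DMSO, and NRG3 had none and 1 over all libraries of each group. Neither passed the filter on low counts.

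Of 17 genes listed around the release of the ligands from the cell surface, 8 were higher, 5 lower and 4 not called. The list mixes sheddases with the inhibitor TIMP3 and with genes of the secretory pathway, so this count gives no direction of shedding. Among all genes tested 34.7% were higher and 35.4% lower. The median log2 fold change of the list was 0.15. As TPM it was -0.06, with 6 higher and 7 lower, while the median shift of all genes was -0.21 log2. PHB1 and NAXD on that list have no established part in shedding; NAXD was among those higher. ADAM17, the main sheddase of AREG, EREG, HBEGF and TGFA in cultured mouse cells, averaged 8.25 FPKM after Japoflavone B and 6.61 FPKM after DMSO, a log2 fold change of 0.42 ± 0.06 (edgeR adjusted p = 6.72e-07; not called as TPM). Its partners RHBDF1 and RHBDF2, the iRhoms that carry it through the secretory pathway, rose by 0.84 and 0.60 log2 (edgeR adjusted p = 3.56e-08 and 7.05e-10). ADAM10, the main sheddase of BTC and EGF in the same kind of cells, averaged 9.83 FPKM after Japoflavone B and 22.3 FPKM after DMSO (log2 fold change -1.08 ± 0.06, edgeR adjusted p = 7.78e-16). TIMP3, an inhibitor of ADAM17, had a log2 fold change of -1.64 on 16 counts after Japoflavone B and 59 after DMSO. TIMP3 passed the filter on low counts through its DMSO libraries alone, so its direction was fixed by the filter. Its call was lost in limma on log2(FPKM + 1), where the change was -0.19. CNIH4, a cargo receptor of the early secretory pathway, rose by 0.63 log2.

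Adaptors and effectors that dock on the activated receptor counted 8 of 20 higher, 5 lower and 7 not called, against 34.7% higher and 35.4% lower among all genes tested. Their median log2 fold change was 0.03 and turned to -0.08 with library totals alone and -0.17 as TPM. The median shifts of all genes in these settings were -0.10 and -0.21 log2. SHC1, an adaptor that links receptors to RAS, averaged 35.8 FPKM after Japoflavone B and 83.3 FPKM after DMSO (log2 fold change -1.12 ± 0.05, edgeR adjusted p = 2.55e-17). Its partner GRB2 stood higher, at 44.3 and 36.5 FPKM (log2 fold change 0.38 ± 0.05). GAB2, a scaffold for PI3K and SHP2, rose by 1.49 log2, the adaptor CRKL by 0.77 log2 and the exchange factor VAV2 by 0.66 log2. GRB7, an adaptor that binds ERBB2, averaged 1.26 FPKM after Japoflavone B and 3.00 FPKM after DMSO (log2 fold change -1.16 ± 0.16). PIK3R3, among the 5 lower, had 16, 26 and 8 counts after Japoflavone B and 123, 97 and 99 after DMSO. It would not have passed the filter on low counts without its DMSO libraries. GRB2, GRB7, PIK3R3, ADAM17 and TIMP3 were picked after their values were seen.

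Among 31 genes listed around the trafficking or switching off of the receptor, 30 were tested, with 20 higher, 7 lower and 3 not called. Of all genes tested, 34.7% were higher, 35.4% lower and 70% called in either direction. On the list, AP2M1, RAB11A and LRIG3 lost their lower call in 6, 5 and 4 of 17 alternatives. RAB7A, SOCS3, SOCS4 and STAM lost their higher call as TPM only. Those genes were named after their values were seen. The median log2 fold change of the list was 0.46, against 0.00 for all genes. As TPM it was 0.24, with 16 higher and 8 lower, while the median shift of all genes was -0.21 log2. RNF41, a ubiquitin ligase of ERBB3 also called NRDP1, averaged 19.3 FPKM after Japoflavone B and 5.83 FPKM after DMSO, a log2 fold change of 1.83 ± 0.06 (edgeR adjusted p = 7.60e-20). SH3KBP1, also called CIN85, which joins CBL to the endocytic machinery, rose by 1.69 ± 0.05 log2 (edgeR adjusted p = 3.27e-21). CBL, the ubiquitin ligase of activated EGFR, was among those higher, with a log2 fold change of 1.07, whereas CBLB, its relative, stood at -0.43 log2; both were chosen after their values were seen. The adaptor GRB10 and the ubiquitin ligase NEDD4 rose by 1.34 and 0.81 log2. The members of this list that fell included LRIG1, a transmembrane inhibitor of ERBB receptors, at -0.79 log2, and the phosphatase PTPRJ at -0.72 log2, also named after their values were seen.

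The deposited annotation places 129 rows in the KEGG map of ErbB signalling, including 7 of the 9 genes and neither ERBB2 nor ERRFI1. Of its 82 tested genes, 36 were higher and 23 lower, with a median log2 fold change of 0.07. Among all genes tested 34.7% were higher and 35.4% lower. As TPM the split was 29 higher and 36 lower and the median -0.11. In that setting the median shift of all genes was -0.21 log2, and 35.2% of all calls were higher. The sign of the map's median thus changed along with a shift of all genes.

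**Figure D5:**
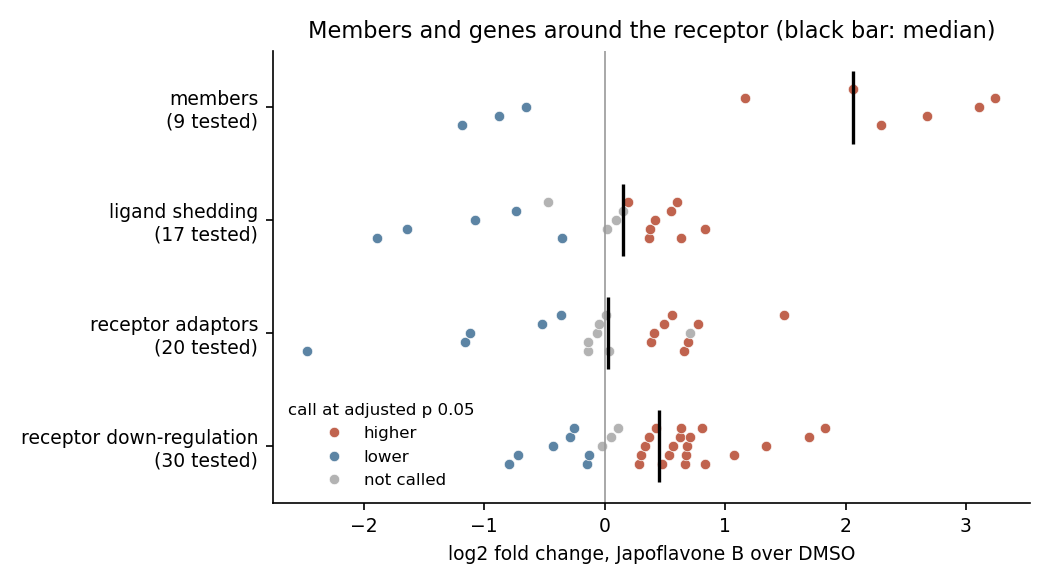
Log2 fold change of every tested gene, Japoflavone B over DMSO, for the 9 genes and 3 lists around the receptor; colours give the call and black bars the medians. Medians are 2.07 for the 9 genes, 0.15 for ligand shedding, 0.03 for adaptors and 0.46 for receptor down-regulation.

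Patterns like those of EGFR and AREG were sought among 11769 tested genes with a symbol and at least 1 FPKM, by the Euclidean distance of log2 CPM centred on the mean of the 6 libraries. Nearest to EGFR were CEP85L, LACC1 and GOLPH3L, at distances of 0.06, 0.12 and 0.12. GOLPH3L, a Golgi protein gene, had 29.5, 27.3 and 29.4 FPKM after Japoflavone B and 14.6, 12.8 and 12.7 FPKM after DMSO. Nearest to AREG were RIN1, ACTA2 and CDKN1A, at 0.24, 0.26 and 0.30. CDKN1A, the gene of the cell cycle inhibitor p21, had 260, 264 and 253 FPKM after Japoflavone B and 28.1, 28.6 and 28.7 FPKM after DMSO. With 2 groups of 3 libraries, such distances mostly rank genes by the size of their fold change.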

How the data were processed

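Poly(A) RNA of A549 cells was sequenced, per the labels, in 3 libraries after Japoflavone B and 3 after DMSO. The deposited table gives, for each library, raw counts per gene made by the authors, with no normalization, and FPKM that the authors computed from these counts, the exonic gene size in bases and the column total (recomputed values differed by at most 0.0050). HTSeq 0.6.1, HISAT2 2.0.1, cutadapt 1.9.1, DESeq2 and the build GRCh38 appear in the submitters' processing notes, without role or order; the annotation release and strand setting are not given in the sources used here.

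The counts entered a quasi-likelihood fit in edgeR 4.0.16 under R 4.3.3, with trimmed-mean scaling and no covariate. Low genes were removed beforehand by filterByExpr (minimum count 10, minimum total 15). P-values were adjusted by Benjamini-Hochberg over all 16082 genes tested, with a threshold of 0.05. The tested genes held 99.83% to 99.86% of each library's counts. Alternatives used DESeq2 1.42.0 and limma 3.58.1. In simulated counts, 80 of 100 genes changed 1.5-fold and 91 of 100 changed 2-fold were called, and 13 of 15293 unchanged genes. Only 200 genes were changed there, so that run does not test the scaling under so wide a response as in these data. The 9 genes, the lists and the tests were chosen with earlier results of these data known. Named were the 9 genes, all other family members, and the 3 genes nearest in pattern to EGFR and to AREG. From each list around the receptor up to 4 genes were named, by adjusted p with at least 1 FPKM. Single genes of the checks on the line and on other cell types, and genes overlapping the 9, were named without such a rule. Others are said to be chosen after their values were seen. Replicate numbers were not taken as pairs of libraries in the main fit. The labels mention no molecular identifiers.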

Additional observations from a re-analysis of the deposited data

How the results depend on the processing

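Over 17 alternatives, 149 of 151 values of the 9 genes kept direction and call. The other values were those of ERBB3 in limma, -0.21 log2 on log2(FPKM + 1) (adjusted p = 0.0647) and -0.58 log2 on log2(FPKM + 0.1) (adjusted p = 0.0663), which left 2 genes called lower; the cause was not tested. With a mean of at least 2 FPKM, 1 of the 9 genes was called lower, since ERBB3 and BTC were not tested. Leaving out each library in turn left 6 higher and 3 lower; BTC then ranged from -1.51 to -0.87 log2, EGFR from 1.11 to 1.27 and AREG from 3.03 to 3.16. On log2(FPKM + 1), HBEGF, TGFA and BTC had 2.37, 1.92 and -0.45 log2.

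Same-numbered libraries deviated from their group means with correlations of 0.013, -0.004 and -0.045, so the numbers were not taken as pairs. With the replicate number as a block, 6 of the 9 genes were higher and 3 lower, and 5502 genes were higher and 5618 lower in all, against 5577 and 5686 without it. Leaving out mitochondrial genes was chosen after seeing the data and changed no call of the 9 genes; over all genes 5553 were then higher and 5651 lower. BTC and ERBB3 rest on 11 to 151 counts per library, which limits their precision.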
